A study of Mus musculus with 24 samples.

Results

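The 35 mouse genes described here encode the enzymes and transporters of glycolysis and of the pentose phosphate pathway, with the kinases that regulate their flux. The genes form a list by their known roles, with no measured value in the rule, and their rows were taken from a table of read counts for 53801 genes. Of the 35, 33 passed the filter on low counts that 12963 genes passed, and the other 2 (*Ldhb* and *Pdk2*) are given as counts without a test. RNA was sequenced from ER-Hoxb8 cells, murine myeloid progenitors that are conditionally immortalised by an estrogen-dependent Hoxb8 and mature toward granulocytes once beta-estradiol is removed. The 6 groups, of 4 independent experiments each, were cells with P199L-ERG, WT-ERG or the empty backbone vector (BB), each treated with BRD3308, an inhibitor of histone deacetylase 3 (HDAC3), or with its vehicle DMSO. P199L-ERG is human ERG, an ETS transcription factor, with a proline replaced by leucine, and WT-ERG is the unchanged human protein. Both were expressed stably from a lentiviral vector under a human PGK promoter, so the endogenous mouse *Erg* was present in every group, BB included. By the study's methods, stable lines were made by transduction and sorting for GFP. A difference between constructs therefore cannot be told apart from one between lines. Beta-estradiol had been washed out in all 6 groups before the 5 µM BRD3308 or the DMSO was added for 36 h. That dose and time come from the series' design text and the study's methods, and another dose and time are given in places in the study's own text.

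Glycolysis splits glucose to pyruvate, and lactate dehydrogenase then reduces pyruvate to lactate and restores NAD+ for the next round. The pentose phosphate pathway leaves glycolysis at glucose 6-phosphate, makes NADPH in its oxidative branch and ribose 5-phosphate in its non-oxidative branch, and returns its carbon to glycolysis. Neutrophils and their progenitors rely heavily on glycolysis, and they spend NADPH on the oxidative burst. The transcription factors HIF-1 and MYC are known to induce many glycolytic genes, and NRF2 is known to induce several pentose phosphate genes.

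Each library held between 12510036 and 16280939 counts. Levels are given as CPM, counts relative to library size as scaled by edgeR's TMM factors, and tests are edgeR's quasi-likelihood test with Benjamini-Hochberg adjustment over the 12963 genes and a threshold of 0.05. The p-values rest on the spread between experiments within groups, estimated jointly over all groups and moderated across genes. Libraries of a group that is not compared therefore also bear on them. Replicate 4 of DMSO-treated WT-ERG cells and replicate 4 of DMSO-treated P199L-ERG cells stood apart with relatively more counts from short genes (correlation of their deviation with log2 exon length, -0.60 and -0.48, against -0.32 to 0.53 in the other libraries). Endogenous *Erg*, whose counts do not check the human transgene, had medians of 99.4, 103 and 93.4 CPM in DMSO-treated P199L-ERG, WT-ERG and BB cells. The 8 markers of monocytes and macrophages were higher with BRD3308, 8 of 8 in each construct: their summed CPM was 2847 to 3029 with BRD3308 and 1094 to 1187 with DMSO in P199L-ERG cells, 2452 to 2704 and 824 to 911 in WT-ERG cells, and 3629.9 to 3899.7 and 1799 to 1960.0 in BB cells. Of 9 tested markers of maturing neutrophils, 4, 5 and 4 were higher with BRD3308 and 0, 1 and 1 lower in P199L-ERG, WT-ERG and BB cells, and in each construct all tested markers of megakaryocytes (3), lymphoid cells (2) and erythroid cells (1) were higher. The megakaryocyte list summed to only 9.27 to 40.7 CPM over the libraries. The erythroid list summed to 0.434 to 2.50 CPM, so its 1 call in each construct rests on few reads. The 8 granulocyte-monocyte progenitor markers, which match the labelled cell type, summed to between 23430.2 and 31578 CPM over the groups and 4, 4 and 5 of them were lower with BRD3308 and 2, 2 and 2 higher in P199L-ERG, WT-ERG and BB cells. Of 4 tested mast cell and basophil markers, 2, 2 and 1 were lower with BRD3308 and 0 higher, and their list summed to 269.7 to 289 CPM with BRD3308 and 416 to 488 with DMSO in P199L-ERG cells, 308 to 330.3 and 484 to 528 in WT-ERG cells, and 298 to 339 and 372 to 393 in BB cells. The erythroid markers *Hbb-bt* and *Hba-a1* were at 0. Beside these marker counts, 22% to 24.7% of all genes tested passed in each direction with BRD3308 in the constructs. No marker list was tested against those shares. The part of these marker shifts in the changes below was not tested, and in bulk RNA fewer cells of a type and less RNA per cell cannot be told apart.

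The members together made up 1.34% ± 0.00983 of all counts in P199L-ERG cells with BRD3308, against 1.47% ± 0.0364 with DMSO (SD, n = 4 libraries each). The corresponding shares were 1.29% ± 0.00625 and 1.41% ± 0.0117 in WT-ERG cells and 1.34% ± 0.00710 and 1.45% ± 0.00771 in BB cells, and the groups with BRD3308 and DMSO did not overlap in any construct. Levels of different genes are compared as CPM per kilobase of the union of a gene's exons, a length on which their order depends. In DMSO-treated BB cells the order began with *Aldoa*, the main aldolase, at 488 ± 9.88 CPM per kb, *Pkm*, pyruvate kinase, at 360.3 ± 4.21, *Gpi1*, glucose 6-phosphate isomerase, at 333 ± 9.38, and *Pgd*, 6-phosphogluconate dehydrogenase, at 299 ± 7.08 (mean ± SD, n = 4). *Taldo1*, transaldolase, *Tkt*, transketolase, and *G6pdx*, which makes the first NADPH of the pathway, followed at 269 ± 3.66, 245 ± 3.94 and 196 ± 7.64 CPM per kb. *Ldha* stood at 169 ± 2.66, *Hk3* at 156 ± 1.61 and *Tpi1* at 149.7 ± 4.54 CPM per kb. *Gapdh*, *Hk1* and *Rpe* did not differ beyond their spread (51.4 ± 3.11, 51.2 ± 0.737 and 50.9 ± 2.02 CPM per kb), nor did *Slc16a1* and *Rpia* (31.3 ± 0.598 and 31.0 ± 1.27). Of the 60-base windows of the *Gapdh* transcript, 81.6% also occur in other genes, so its place in this order is uncertain. The same holds for *Eno1*, *Pgk1* and *Pgam1* (69.5%, 67.8% and 41.1%). *Pgam1*, *Hk2*, *Pfkl*, *Slc2a1* and *Pdk3* lay together between 16.2 and 17.4 CPM per kb. The lowest tested members were *Slc2a3* at 6.14 ± 0.528, *Pdk1* at 4.66 ± 0.154, *Aldoc* at 2.68 ± 0.239, *Fbp1* at 1.29 ± 0.128 and *Eno2* at 0.0423 ± 0.0295 CPM per kb. Per kilobase of the longest protein-coding transcript instead, *Aldoa*, *Pgd*, *Gpi1* and *Pkm* led in that order, and *Ldha* and *Tpi1* stood above *G6pdx* (307, 256 and 228 CPM per kb).

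Genes that share a step were used unequally. *Hk3*, the hexokinase of myeloid cells, gave 67.3% with BRD3308 and 71.0% with DMSO of the 3 hexokinase levels per kb in P199L-ERG cells, 67.6% with BRD3308 and 71.0% with DMSO in WT-ERG cells and 67.4% with BRD3308 and 69.6% with DMSO in BB cells. Among the phosphofructokinases, which commit the sugar to glycolysis, *Pfkl* held the largest share, 51.3% with BRD3308 and 54.9% with DMSO in P199L-ERG cells, 51.5% with BRD3308 and 53.7% with DMSO in WT-ERG cells and 51.1% with BRD3308 and 54.3% with DMSO in BB cells. Lactate dehydrogenase came almost entirely from *Ldha*, the subunit that favours lactate formation. Its partner *Ldhb* summed over 4 libraries to 1 count with BRD3308 and 3 with DMSO in P199L-ERG cells, 9 and 0 in WT-ERG cells, and 22 and 1 in BB cells, and it did not pass the filter. Of the kinases that switch off pyruvate dehydrogenase, *Pdk3* held 77.0% with BRD3308 and 75.9% with DMSO in P199L-ERG cells, 78.0% with BRD3308 and 76.4% with DMSO in WT-ERG cells and 79.2% with BRD3308 and 77.6% with DMSO in BB cells, while *Pdk2* had 0 counts in all 24 libraries. The lactate transporter *Slc16a1* exceeded *Slc16a3* in every group, with 68.0% with BRD3308 and 66.7% with DMSO in P199L-ERG cells, 71.4% with BRD3308 and 71.0% with DMSO in WT-ERG cells and 65.0% with BRD3308 and 63.4% with DMSO in BB cells. No share was tested, and each depends on the exon length used: per kilobase of the longest coding transcript, *Hk3* gave 58.0% with BRD3308 and 61.6% with DMSO in P199L-ERG cells.

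**Figure D1:**
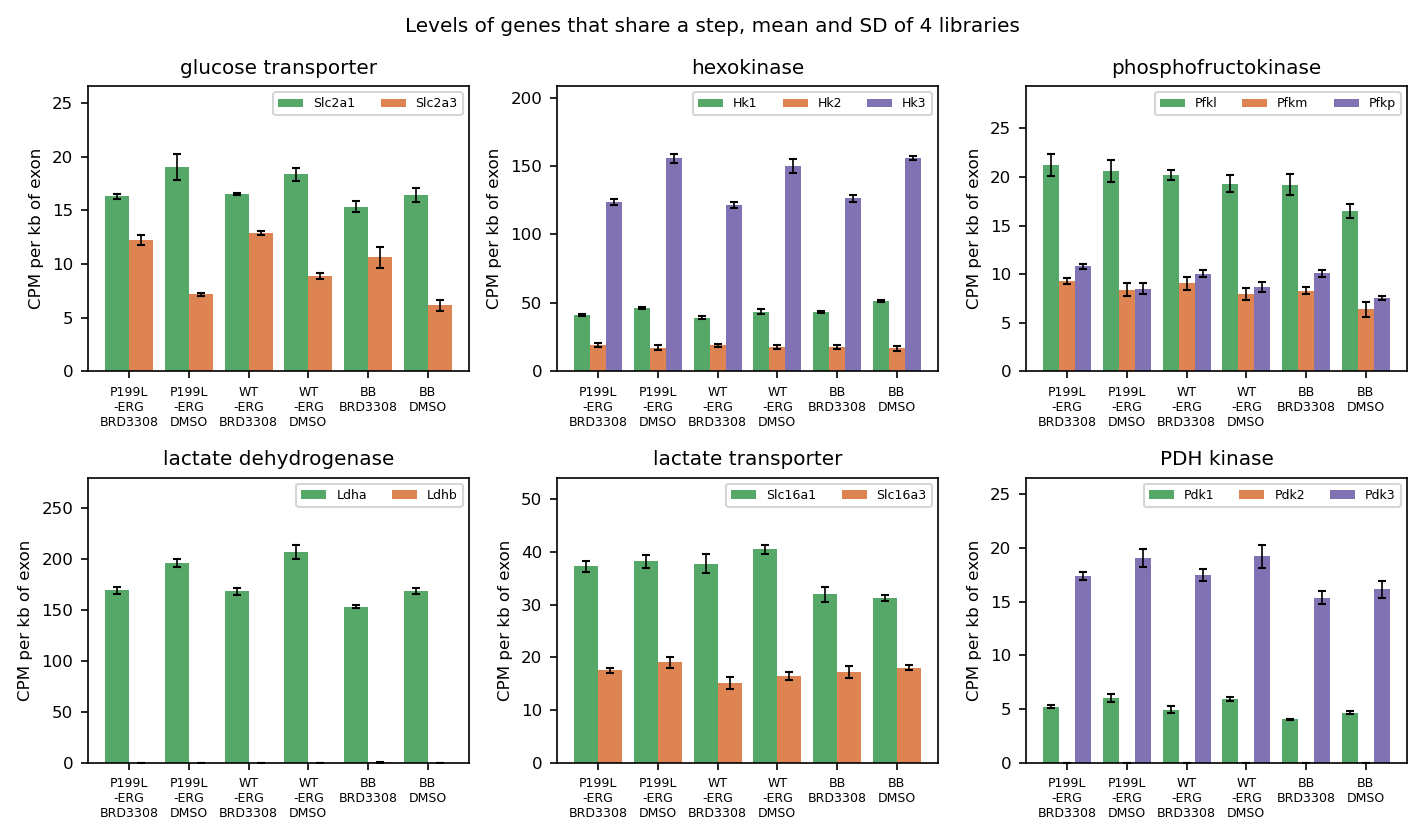
Levels of genes that share a step, in CPM per kilobase of exon on the vertical axis, for the 6 groups on the horizontal axis. Bars are means of 4 libraries and error bars are SD. On this scale *Slc2a3* was nearest to *Slc2a1* in the groups with BRD3308, *Hk3* exceeded *Hk1* and *Hk2* in every group, and *Ldhb* and *Pdk2* were at or near 0.

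Promoter windows from RefSeq (GRCm38.p6, a short stretch around a start of transcription) were found for 34 of the 35 genes, 49 windows in all, with none for *Slc2a3*. The letters ACGTG, the core that HIF-1 recognises, were searched on both strands and stood in 21 of the 49 windows (42.9%) and in 19.6% of all 32851 windows. Counted by gene, they stood in 18 of the 34 genes and in 21.8% of 27025 genes. The E-box CACGTG, which MYC and MAX recognise and which holds ACGTG on both strands, stood in 5 of 49 windows (10.2%) and in 7.15% of all windows. CCGGAAGT, letters that ETS factors such as ERG bind, stood in 0 of 49 windows and in 3.89% of all windows. These matches are letters in a window, not measured binding. The 4 windows printed below are those of *Ldha*, *Slc16a1*, *Tpi1* and *Pgk1*. In DMSO, *Ldha*, *Slc16a1* and *Tpi1* were higher in both ERG constructs than in BB cells, *Tpi1* less stably in WT-ERG cells. *Ldha* and *Tpi1* were also lower with BRD3308 in all 3 constructs. *Pgk1* did not pass the test in any comparison, and its human counterpart supplies the promoter of the ERG vector. Of the other members higher in both ERG constructs, *Slc2a1*, *Pfkm*, *Gapdh* and *Pdk3* also held ACGTG in the window taken for each. *Pfkl*, *Pfkp*, *Aldoc*, *Eno1*, *Pdk1* and *Fbp1* did not hold it in theirs. *Aldoc* and *Pdk1* have 2 windows each and *Eno1* has 3, of which 1 was used here. Whether their other windows hold ACGTG is not given here, whereas the count of 18 genes took every window. Capitals mark every match to ACGTG or CACGTG on either strand.
*Ldha*, chr7:46845554-46845853, plus strand: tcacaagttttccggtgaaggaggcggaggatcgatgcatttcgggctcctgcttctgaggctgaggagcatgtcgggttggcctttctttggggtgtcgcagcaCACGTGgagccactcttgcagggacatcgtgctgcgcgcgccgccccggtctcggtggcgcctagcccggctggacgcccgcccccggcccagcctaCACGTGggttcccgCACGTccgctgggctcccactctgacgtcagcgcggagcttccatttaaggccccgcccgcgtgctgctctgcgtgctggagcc
*Slc16a1*, chr3:104638414-104638713, plus strand: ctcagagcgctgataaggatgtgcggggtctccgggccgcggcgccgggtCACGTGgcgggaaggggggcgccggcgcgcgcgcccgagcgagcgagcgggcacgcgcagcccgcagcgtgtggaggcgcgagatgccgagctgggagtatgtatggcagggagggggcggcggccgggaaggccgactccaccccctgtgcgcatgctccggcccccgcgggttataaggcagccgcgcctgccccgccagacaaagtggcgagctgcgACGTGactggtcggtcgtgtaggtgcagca
*Pgk1*, chrX:106186850-106187149, plus strand: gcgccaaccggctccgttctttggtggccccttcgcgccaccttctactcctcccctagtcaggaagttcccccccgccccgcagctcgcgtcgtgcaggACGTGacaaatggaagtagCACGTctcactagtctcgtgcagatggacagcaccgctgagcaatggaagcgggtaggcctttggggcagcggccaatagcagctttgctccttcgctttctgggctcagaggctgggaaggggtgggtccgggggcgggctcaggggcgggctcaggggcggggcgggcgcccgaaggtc
*Tpi1*, chr6:124814109-124814408, minus strand: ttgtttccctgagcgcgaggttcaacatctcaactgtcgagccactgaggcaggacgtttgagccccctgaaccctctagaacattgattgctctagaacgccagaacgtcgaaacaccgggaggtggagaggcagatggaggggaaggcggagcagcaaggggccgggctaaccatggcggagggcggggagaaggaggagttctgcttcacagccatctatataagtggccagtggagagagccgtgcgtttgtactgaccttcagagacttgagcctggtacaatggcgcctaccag
The *Ldha* window held 3 marked stretches, those of *Slc16a1* and *Pgk1* held 2 each, and that of *Tpi1* held 0.

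The first question was how the pathway responded to inhibition of HDAC3. With BRD3308, 11 of 33 tested members were lower in all 3 constructs, beside 15.1% of all genes tested: the hexokinases *Hk1* and *Hk3*, the glycolytic enzymes *Gpi1*, *Aldoc*, *Tpi1*, *Eno1* and *Pkm*, lactate dehydrogenase *Ldha*, the pentose phosphate enzymes *Rpia* and *Tkt*, and the kinase *Pdk1*. Another 4 were higher in all 3 constructs, beside 17.3% of all genes, namely the glucose transporter *Slc2a3*, the phosphofructokinase *Pfkp*, *G6pdx* and the scarcely detected *Eno2*, which passed the filter only through its BRD3308 libraries. Besides *Eno2*, 3 members were higher in all 3 constructs, and 4, 4 and 6 in P199L-ERG, WT-ERG and BB cells. No member was called in opposite directions in different constructs. In P199L-ERG cells, 5 of 33 tested members were higher and 16 lower with BRD3308, where 24.4% of all genes tested were higher and 24.1% lower. In WT-ERG cells 5 were higher and 17 lower, beside 24.7% and 23.2% of all genes. In BB cells 7 were higher and 11 lower, beside 24% and 22%. Of the 33 members, 23 lay in the quartile of genes with the highest levels. In that quartile 18.9% of genes were higher in P199L-ERG, 18.9% in WT-ERG and 17.4% in BB cells. The share of genes that were lower there was 38% in P199L-ERG, 36.4% in WT-ERG and 35.3% in BB cells. Beside these shares, lower members made up 48.5% of those tested in P199L-ERG, 51.5% in WT-ERG and 33.3% in BB cells. The member shares cover all 33, not only the 23 in that quartile, so the sets compared are unlike. With that limit, the BB share of lower members in this fit was near that of other highly expressed genes. Changes were small: the members' median log2 fold change was -0.12 in P199L-ERG, -0.12 in WT-ERG and -0.071 in BB cells, beside -0.0062, -0.0015 and 0.0056 for all genes tested. Without both libraries rich in short-gene counts, 7 members were higher and 17 lower in P199L-ERG cells, 5 and 16 in WT-ERG cells, and 7 and 15 in BB cells. Scaled by library size alone, 6 were higher and 15 lower in BB cells. The all-gene shares under these alternative settings are not given here, so the shifts in member counts cannot be set beside them.

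The largest increase among well-detected members was in the RNA of a glucose transporter, with uptake itself not measured. *Slc2a3* (chr6:122727809-122801640, minus strand, GRCm38) encodes the high-affinity glucose transporter GLUT3. It had 89.4, 86.0, 86.1 and 93.3 CPM with BRD3308, against 52.2, 53.5, 50.6 and 50.9 CPM with DMSO, in P199L-ERG cells. *Slc2a3* in WT-ERG cells had 91.7, 93.1, 93.0 and 95.3 CPM with BRD3308, against 61.1, 65.8, 65.6 and 64.8 CPM with DMSO. *Slc2a3* in BB cells had 71.0, 72.7, 77.4 and 86.5 CPM with BRD3308, against 42.1, 41.0, 45.2 and 49.5 CPM with DMSO. Every library with BRD3308 lay above every DMSO library of its construct. For *Slc2a3* the log2 fold change was 0.77 (SE 0.055) in P199L-ERG cells, 0.53 (SE 0.054) in WT-ERG cells and 0.79 (SE 0.057) in BB cells, with edgeR adjusted p of 3.4e-12, 3.9e-09 and 3.6e-12. *Slc2a1*, which encodes the glucose transporter GLUT1, went the other way in the ERG constructs. It averaged 57.1 ± 0.825 CPM with BRD3308 and 66.8 ± 4.28 CPM with DMSO in P199L-ERG cells (SD, n = 4 each), a log2 fold change of -0.22 (SE 0.044, edgeR adjusted p = 0.00011). The change was -0.15 (SE 0.044, edgeR adjusted p = 0.0053) in WT-ERG cells and -0.097 (SE 0.045, edgeR adjusted p = 0.078) in BB cells. Of the 2 transporters' levels per kb, *Slc2a3* held 42.9% with BRD3308 and 27.4% with DMSO in P199L-ERG cells, 43.8% with BRD3308 and 32.6% with DMSO in WT-ERG cells and 40.8% with BRD3308 and 27.2% with DMSO in BB cells. Per kilobase of the longest coding transcript the order of the 2 differed with BRD3308, *Slc2a3* holding 56.1% with BRD3308 and 39.0% with DMSO in P199L-ERG cells.

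**Figure D2:**
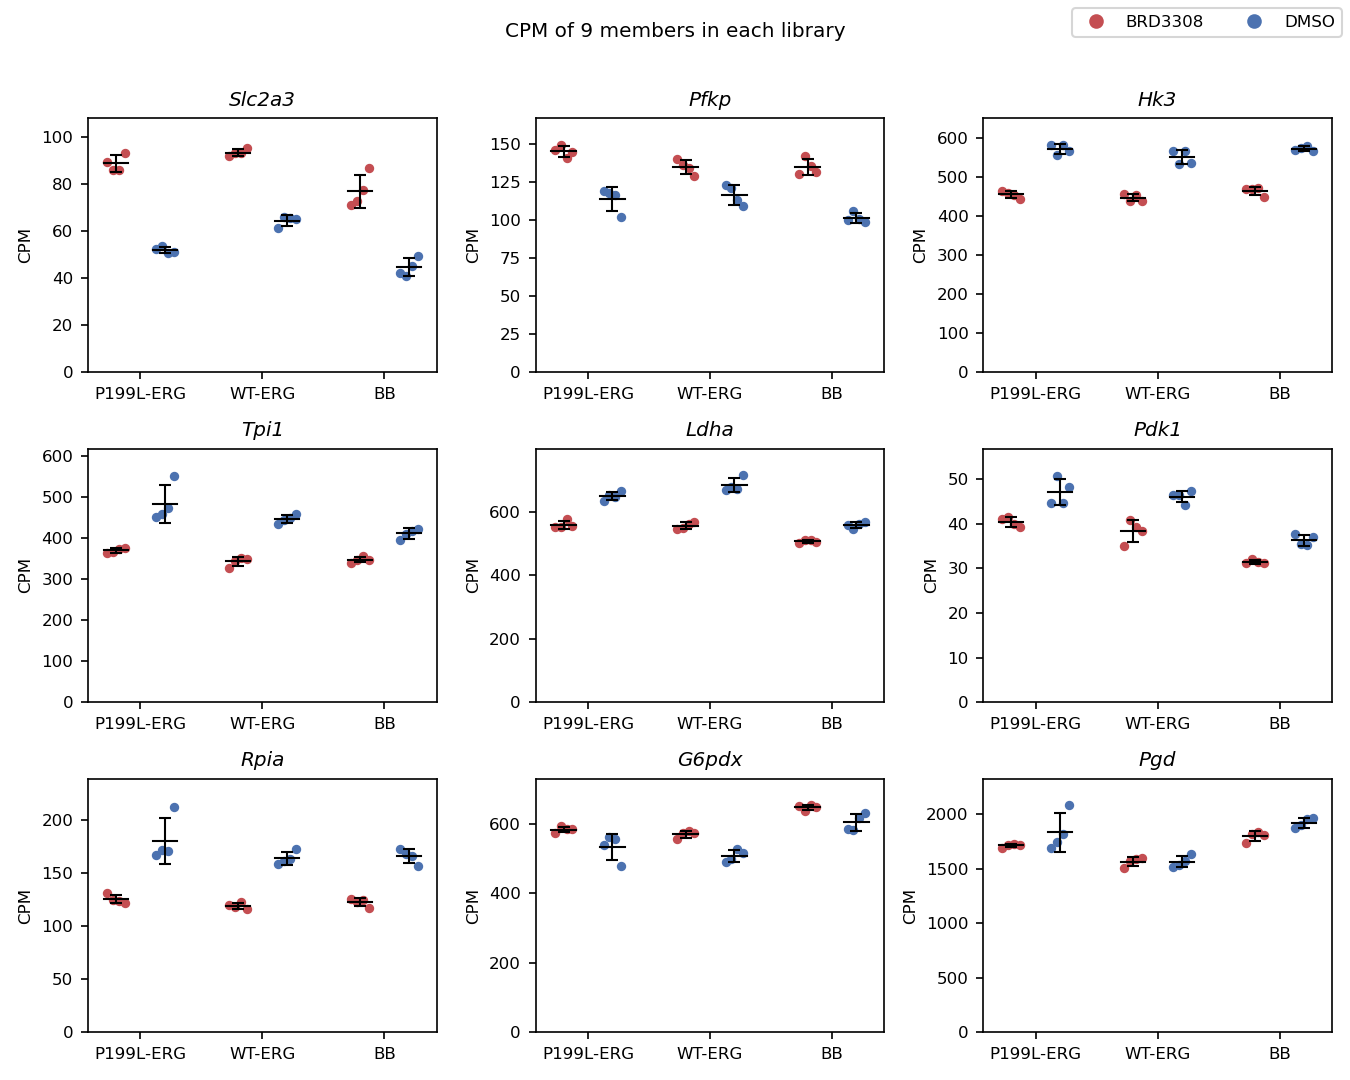
CPM of 9 members in each of the 24 libraries, with construct on the horizontal axis and a vertical axis from 0. Points are libraries, BRD3308 left of DMSO, and bars are the mean and SD of 4 libraries. *Slc2a3* and *Pfkp* with BRD3308 lie above DMSO, and *Hk3*, *Tpi1*, *Ldha*, *Pdk1* and *Rpia* below it, in every construct, while *Rpia* in replicate 4 of DMSO-treated P199L-ERG cells, at 212 CPM, lies above its group.

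The hexokinases, which trap glucose in the cell as glucose 6-phosphate, were lower or did not pass the test. *Hk3* (chr13:55005985-55021385, minus strand) had 464, 459.9, 455 and 445 CPM with BRD3308, against 582, 558, 583 and 567 CPM with DMSO, in P199L-ERG cells. *Hk3* in WT-ERG cells had 456, 439.6, 455 and 439.7 CPM with BRD3308, against 567, 535, 568 and 536 CPM with DMSO. *Hk3* in BB cells had 470.4, 469, 472 and 451 CPM with BRD3308, against 571, 574, 581 and 567 CPM with DMSO. The groups did not overlap in any construct, and the 3 changes were close to each other. For *Hk3* the log2 fold change was -0.33 (SE 0.030) in P199L-ERG cells, -0.30 (SE 0.030) in WT-ERG cells and -0.30 (SE 0.030) in BB cells, with edgeR adjusted p of 6.6e-10, 3.4e-09 and 3.5e-09. *Hk1*, the widely expressed hexokinase, ranged over 343 to 361 CPM with BRD3308 and 386 to 405 CPM with DMSO in P199L-ERG cells, over 326 to 344 and 347 to 382 CPM in WT-ERG cells, and over 358 to 377 and 431 to 444 CPM in BB cells. It was lower in each, with log2 fold changes of -0.17 (SE 0.033) in P199L-ERG cells, -0.15 (SE 0.033) in WT-ERG cells and -0.24 (SE 0.033) in BB cells, with edgeR adjusted p of 7.7e-05, 0.00035 and 7.5e-07. *Hk2*, the inducible hexokinase, did not pass the test in any construct, with log2 fold changes of 0.15, 0.11 and 0.087. With the replicate number as a block, its change in P199L-ERG cells passed at 0.15 (adjusted p = 0.02), and without replicate 4 of DMSO-treated P199L-ERG cells at 0.19 (adjusted p = 0.029).

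In upper glycolysis the phosphofructokinases and the enzymes around them differed in direction. *Pfkp*, the platelet-type phosphofructokinase, had 146, 149, 141 and 144 CPM with BRD3308, against 119, 118, 116 and 102 CPM with DMSO, in P199L-ERG cells. *Pfkp* in WT-ERG cells had 139.8, 136, 134 and 129 CPM with BRD3308, against 123, 121, 113 and 109 CPM with DMSO. *Pfkp* in BB cells had 130.4, 142, 135 and 131 CPM with BRD3308, against 100.1, 106, 101 and 98.4 CPM with DMSO. All BRD3308 libraries lay above the DMSO libraries of their construct. For *Pfkp* the log2 fold change was 0.35 (SE 0.046) in P199L-ERG cells, 0.21 (SE 0.046) in WT-ERG cells and 0.41 (SE 0.046) in BB cells, with edgeR adjusted p of 3.8e-07, 0.00042 and 2.8e-08. *Pfkm*, the muscle-type enzyme, was higher in BB cells with 0.38 (SE 0.077, edgeR adjusted p = 0.0002) and in WT-ERG cells with 0.18 (SE 0.073, edgeR adjusted p = 0.045), a call that was lost in 15 of 24 fits that left out 1 library each. In P199L-ERG cells its change was 0.15 (SE 0.073, edgeR adjusted p = 0.083), which passed without replicate 4 of DMSO-treated P199L-ERG cells, at 0.20 (adjusted p = 0.024). *Pfkl*, the liver-type enzyme, was higher in BB cells, with 0.22 (SE 0.048, edgeR adjusted p = 0.00049), and had log2 fold changes of 0.047 in P199L-ERG and 0.069 in WT-ERG cells that did not pass. *Gpi1*, which converts glucose 6-phosphate to fructose 6-phosphate, was lower in all 3 constructs, with log2 fold changes of -0.18 (SE 0.029) in P199L-ERG cells, -0.13 (SE 0.029) in WT-ERG cells and -0.18 (SE 0.029) in BB cells, with edgeR adjusted p of 1.2e-05, 0.00046 and 7.9e-06. *Fbp1*, fructose-1,6-bisphosphatase, which runs the phosphofructokinase step backward in gluconeogenesis, was lower in P199L-ERG cells, with -0.43 (SE 0.16, edgeR adjusted p = 0.032), where the groups overlapped. That call was lost without replicate 3 or 4 of DMSO or replicate 2 or 3 of BRD3308 in P199L-ERG cells (adjusted p up to 0.132). The bifunctional enzymes *Pfkfb3* and *Pfkfb4*, which set the level of the phosphofructokinase activator fructose 2,6-bisphosphate, did not pass in any construct, with log2 fold changes between -0.12 and 0.029. Without replicate 4 of DMSO-treated P199L-ERG cells *Pfkfb4* was lower there, at -0.21 (adjusted p = 0.00073).

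Of the genes of the aldolase and triose steps, *Tpi1* and *Aldoc* were lower in all 3 constructs. *Tpi1* (chr6:124810586-124814296, minus strand), triose phosphate isomerase, had 365, 368, 374 and 376 CPM with BRD3308, against 452, 458, 475 and 552 CPM with DMSO, in P199L-ERG cells. *Tpi1* in WT-ERG cells had 328, 345, 353 and 351 CPM with BRD3308, against 435, 445, 450.4 and 459.5 CPM with DMSO. *Tpi1* in BB cells had 341, 347, 356 and 346 CPM with BRD3308, against 395, 411, 419 and 423 CPM with DMSO. The groups did not overlap, and replicate 4 of DMSO-treated P199L-ERG cells was the highest library. For *Tpi1* the log2 fold change was -0.39 (SE 0.044) in P199L-ERG cells, -0.38 (SE 0.044) in WT-ERG cells and -0.25 (SE 0.044) in BB cells, with edgeR adjusted p of 3.6e-08, 5.2e-08 and 4.1e-05. *Aldoa* was lower in P199L-ERG cells, with -0.19 (SE 0.035, edgeR adjusted p = 7.2e-05), and in WT-ERG cells, with -0.20 (SE 0.035, edgeR adjusted p = 3.4e-05). Its change of -0.079 (SE 0.035, edgeR adjusted p = 0.07) in BB cells passed under the replicate block at -0.079 (adjusted p = 0.028). *Aldoc*, the brain-type aldolase, was a low-level gene with the largest decrease in WT-ERG and BB cells. It had 7.92, 7.67, 9.61 and 6.82 CPM with BRD3308, against 9.65, 10.1, 12.2 and 10.8 CPM with DMSO, in P199L-ERG cells. *Aldoc* in WT-ERG cells had 6.20, 7.95, 7.08 and 7.34 CPM with BRD3308, against 12.6, 14.3, 12.1 and 12.7 CPM with DMSO. *Aldoc* in BB cells had 5.46, 5.43, 5.67 and 4.26 CPM with BRD3308, against 8.87, 8.25, 9.78 and 8.04 CPM with DMSO. All BRD3308 libraries lay below the DMSO libraries of their construct, narrowly so in P199L-ERG cells. For *Aldoc* the log2 fold change was -0.42 (SE 0.11) in P199L-ERG cells, -0.86 (SE 0.10) in WT-ERG cells and -0.74 (SE 0.12) in BB cells, with edgeR adjusted p of 0.0017, 1.2e-07 and 8e-06.

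Lower glycolysis ended in pyruvate and lactate. *Eno1*, the main enolase, had 420.5, 405, 408 and 401 CPM with BRD3308, against 465, 482, 499.7 and 531 CPM with DMSO, in P199L-ERG cells. *Eno1* in WT-ERG cells had 384, 377, 394 and 391 CPM with BRD3308, against 471, 454, 479.9 and 504 CPM with DMSO. *Eno1* in BB cells had 376, 366, 379 and 367 CPM with BRD3308, against 419, 416, 426 and 429 CPM with DMSO. The BRD3308 libraries lay below the DMSO libraries in every construct. For *Eno1* the log2 fold change was -0.27 (SE 0.036) in P199L-ERG cells, -0.30 (SE 0.036) in WT-ERG cells and -0.18 (SE 0.036) in BB cells, with edgeR adjusted p of 4.5e-07, 7.8e-08 and 0.00014. Of the 60-base windows of its transcript, 69.5% also occurred in other genes, so its counts are uncertain. *Eno2*, the neuronal enolase, was the tested member with the largest fold change and the fewest reads. Its counts were 3, 4, 6 and 7 with BRD3308 and 0, 1, 3 and 0 with DMSO in P199L-ERG cells, 4, 10, 5 and 11 against 0, 6, 0 and 0 in WT-ERG cells, and 10, 14, 14 and 14 against 1, 3, 2 and 5 in BB cells. It passed the filter only thinly and through its BRD3308 libraries, so that its log2 fold changes of 2.16, 2.22 and 2.15 are a description. They moved to 3.46 in P199L-ERG cells without replicate 3 of their DMSO libraries and to 5.91 in WT-ERG cells without replicate 2 of theirs, and the P199L-ERG call was lost in 5 of 24 fits (adjusted p up to 0.0866). *Pkm* was lower, with log2 fold changes of -0.11 (SE 0.028) in P199L-ERG cells, -0.16 (SE 0.028) in WT-ERG cells and -0.080 (SE 0.028) in BB cells, with edgeR adjusted p of 0.0022, 3.1e-05 and 0.021, and its call in BB cells was lost without replicate 4 of DMSO-treated BB cells (adjusted p = 0.0502).

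*Ldha* (chr7:46841475-46855627, plus strand) had 553, 552, 578 and 556 CPM with BRD3308, against 634, 652, 647 and 665 CPM with DMSO, in P199L-ERG cells. *Ldha* in WT-ERG cells had 545, 551, 563 and 569 CPM with BRD3308, against 669.6, 679, 673 and 716 CPM with DMSO. *Ldha* in BB cells had 501, 512, 510.2 and 506 CPM with BRD3308, against 557, 546, 562 and 566 CPM with DMSO. The groups did not overlap in any construct, and the DMSO libraries of both ERG constructs were the highest of the 24. For *Ldha* the log2 fold change was -0.21 (SE 0.029) in P199L-ERG cells, -0.30 (SE 0.029) in WT-ERG cells and -0.14 (SE 0.030) in BB cells, with edgeR adjusted p of 8e-07, 2.7e-09 and 0.00036. *Slc16a1*, which carries lactate across the membrane, was lower in WT-ERG cells, with -0.098 (SE 0.038, edgeR adjusted p = 0.036), a call lost without replicate 1, 3 or 4 of DMSO or replicate 4 of BRD3308 in WT-ERG cells (adjusted p up to 0.115). Its changes of -0.037 in P199L-ERG and 0.032 in BB cells did not pass. *Slc16a3*, the lactate exporter of glycolytic cells, had log2 fold changes of -0.12, -0.12 and -0.068 that did not pass. In P199L-ERG cells it passed under the replicate block, at -0.12 (adjusted p = 0.0043). *Pdk1*, a kinase that switches off pyruvate dehydrogenase, was lower in every construct, with log2 fold changes of -0.22 (SE 0.049) in P199L-ERG cells, -0.26 (SE 0.050) in WT-ERG cells and -0.21 (SE 0.052) in BB cells, with edgeR adjusted p of 0.00053, 7.7e-05 and 0.0018. *Pdk3* was lower in P199L-ERG cells, with -0.13 (SE 0.048, edgeR adjusted p = 0.024), and in WT-ERG cells, with -0.13 (SE 0.048, edgeR adjusted p = 0.024), and both calls were lost when some single libraries were left out (3 and 2 of 24 fits). These were replicate 1 of DMSO and replicates 2 and 3 of BRD3308 in P199L-ERG cells, and replicates 3 and 4 of DMSO in WT-ERG cells, with adjusted p up to 0.0912.

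*Gapdh*, *Pgk1* and *Pgam1*, which carry the triose phosphates toward pyruvate, moved little. *Gapdh* was lower in WT-ERG cells, with -0.15 (SE 0.048, edgeR adjusted p = 0.012), and had log2 fold changes of -0.045 in P199L-ERG and 0.047 in BB cells that did not pass. In P199L-ERG cells it passed without replicate 4 of the DMSO libraries, at -0.11 (adjusted p = 0.03). *Pgk1* had log2 fold changes of 0.043, 0.040 and 0.0017 in P199L-ERG, WT-ERG and BB cells, none of which passed, and the 95% interval in P199L-ERG cells was -0.039 to 0.12. *Pgam1* was higher in P199L-ERG cells, with 0.20 (SE 0.056, edgeR adjusted p = 0.0043). Much of the transcript of each recurs in pseudogenes and copies: 81.6% of the 60-base windows of *Gapdh*, 67.8% of those of *Pgk1* and 41.1% of those of *Pgam1* occurred in other genes, beside 28% for *Pkm*, 20.3% for *Gpi1*, 16.9% for *Pfkp* and 10.4% for *Ldha*. How reads that fit several genes were counted was not given in the sources used here, so these counts are uncertain. *Pgls*, *Pkm* and *Pfkm* also overlap another gene on the same strand, and *Pfkp* overlaps *Pitrm1* on the other strand, with the strand setting of the counting likewise not given.

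In the pentose phosphate pathway the entry enzyme was higher and several later enzymes lower. *G6pdx*, glucose 6-phosphate dehydrogenase, had 572, 592, 584 and 583 CPM with BRD3308, against 538, 561, 555 and 479 CPM with DMSO, in P199L-ERG cells. *G6pdx* in WT-ERG cells had 555, 572, 578 and 572 CPM with BRD3308, against 489, 498, 526 and 514 CPM with DMSO. *G6pdx* in BB cells had 650.2, 636, 652 and 648 CPM with BRD3308, against 584, 583, 615 and 631 CPM with DMSO. The groups did not overlap, although the difference was small. For *G6pdx* the log2 fold change was 0.13 (SE 0.039) in P199L-ERG cells, 0.17 (SE 0.039) in WT-ERG cells and 0.10 (SE 0.039) in BB cells, with edgeR adjusted p of 0.0079, 0.0008 and 0.037. The call in BB cells was lost in 13 of the 24 fits that left out 1 library each (adjusted p up to 0.121). The change in P199L-ERG cells was 0.072 (adjusted p = 0.048) without replicate 4 of their DMSO libraries, and the call was lost in a fit of the 8 compared libraries alone (adjusted p = 0.11). *Rpia* (chr6:70765720-70792232, minus strand), ribose 5-phosphate isomerase, showed the largest decrease of the pathway in each construct. It had 132, 125, 124 and 122 CPM with BRD3308, against 167, 172, 171 and 212 CPM with DMSO, in P199L-ERG cells. *Rpia* in WT-ERG cells had 119.7, 118, 123 and 116 CPM with BRD3308, against 159, 161, 163 and 173 CPM with DMSO. *Rpia* in BB cells had 126, 123, 125 and 117 CPM with BRD3308, against 173, 168, 166 and 157 CPM with DMSO. No library with BRD3308 reached the DMSO range of its construct. For *Rpia* the log2 fold change was -0.52 (SE 0.054) in P199L-ERG cells, -0.46 (SE 0.054) in WT-ERG cells and -0.44 (SE 0.054) in BB cells, with edgeR adjusted p of 5.8e-09, 6.4e-08 and 1.5e-07.

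*Tkt*, which moves carbon units between sugars, averaged 1470.2 ± 31.0 CPM with BRD3308 and 1763 ± 176 CPM with DMSO in P199L-ERG cells (SD, n = 4 each). It was lower in each construct, with log2 fold changes of -0.26 (SE 0.043) in P199L-ERG cells, -0.14 (SE 0.043) in WT-ERG cells and -0.18 (SE 0.043) in BB cells, with edgeR adjusted p of 1.1e-05, 0.0073 and 0.0012. *Pgls*, the lactonase of the oxidative branch, was lower in P199L-ERG cells, with -0.35 (SE 0.083, edgeR adjusted p = 0.00088), and in WT-ERG cells, with -0.24 (SE 0.083, edgeR adjusted p = 0.018). The P199L-ERG value was -0.22 (adjusted p = 0.0021) without replicate 4 of DMSO-treated P199L-ERG cells. The WT-ERG call was lost without replicate 4 of DMSO-treated WT-ERG cells (adjusted p = 0.0770). In BB cells *Pgls* passed under the replicate block, at -0.19 (adjusted p = 0.006), and without it had -0.19 (SE 0.084, edgeR adjusted p = 0.067). *Taldo1* was higher in BB cells, with 0.14 (SE 0.046, edgeR adjusted p = 0.015), and had log2 fold changes of 0.055 in P199L-ERG and 0.10 in WT-ERG cells that did not pass. Without replicate 4 of DMSO-treated P199L-ERG cells it was higher there too, at 0.11 (adjusted p = 0.01). *Pgd*, which makes the second NADPH, had log2 fold changes of -0.098 in P199L-ERG and -0.094 in BB cells, neither past the threshold. With the replicate number as a block these passed, at -0.095 (adjusted p = 0.016) and -0.093 (adjusted p = 0.018). In WT-ERG cells *Pgd* averaged 1567 ± 38.3 CPM with BRD3308 and 1568 ± 51.7 CPM with DMSO. *Rpe*, the epimerase, had log2 fold changes between -0.012 and 0.026 and did not pass. *Slc2a1* in BB cells also passed with the block, at -0.097 (adjusted p = 0.042).

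**Figure D3:**
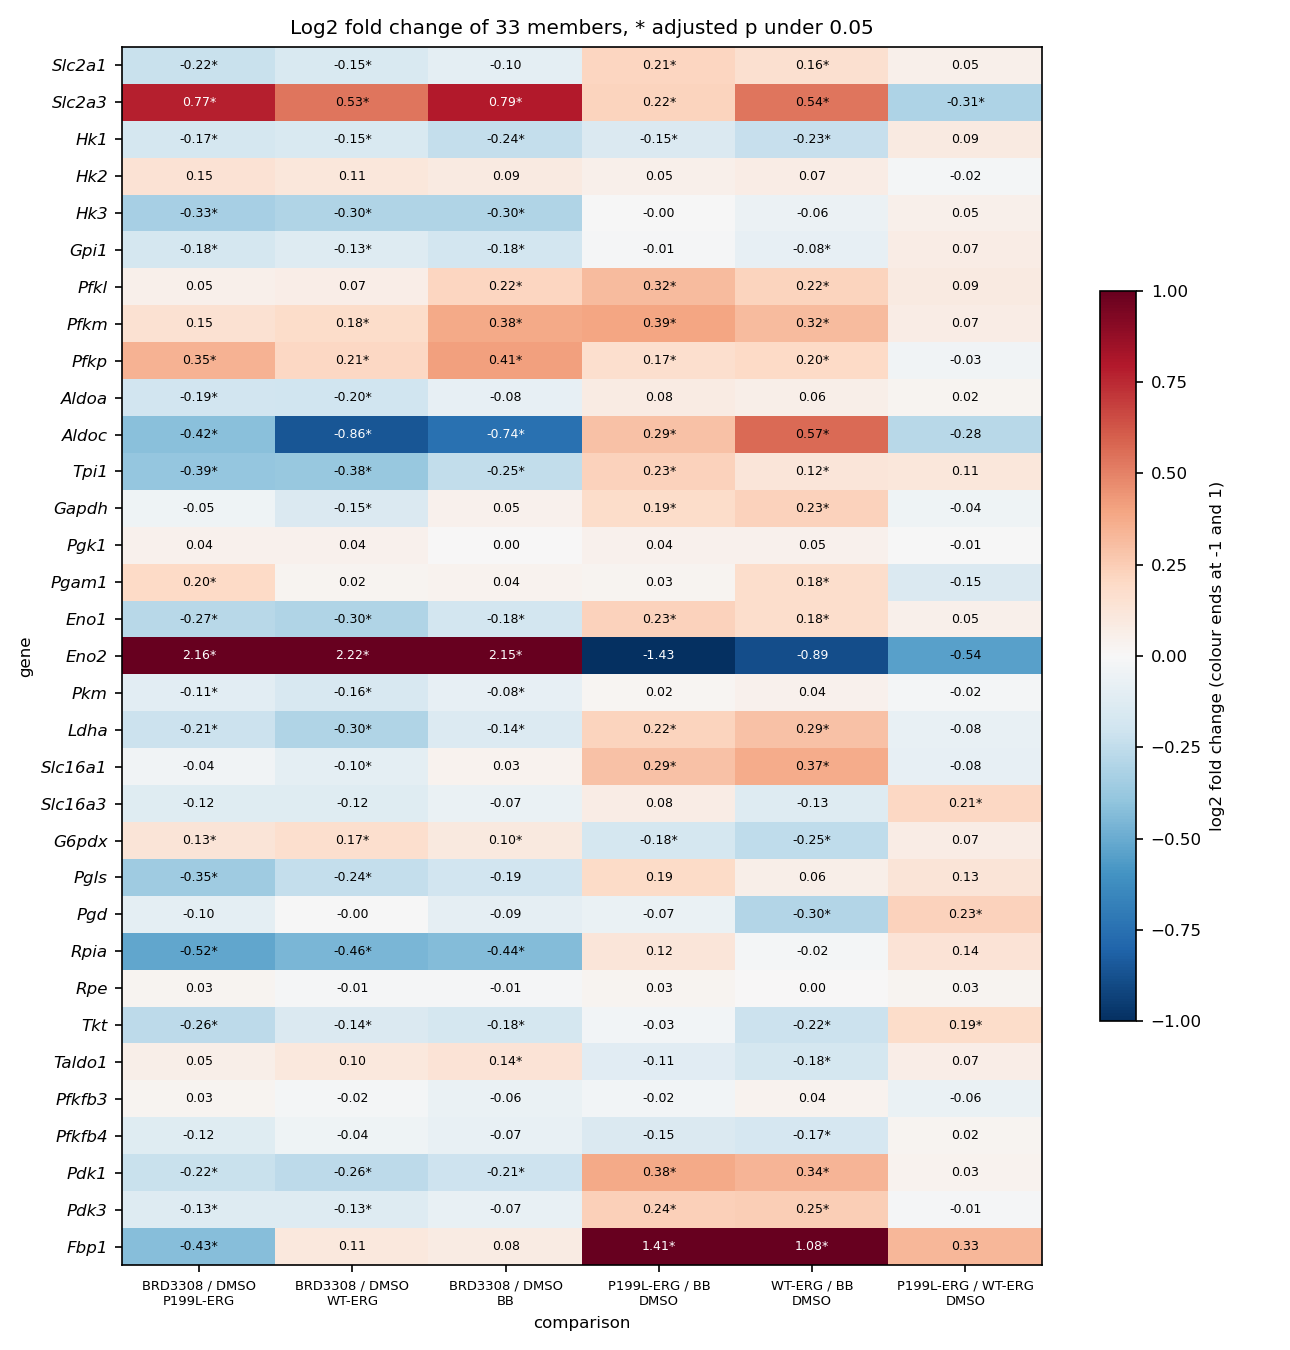
Log2 fold change of the 33 tested members (rows) in 6 comparisons (columns), coloured between -1 and 1 and printed in each cell, with an asterisk for an edgeR adjusted p under 0.05. The left 3 columns, BRD3308 against DMSO, hold asterisks for 16, 17 and 11 lower members, and the columns of P199L-ERG and WT-ERG against BB hold asterisks for 14 and 15 higher members.

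The second question was how the ERG constructs differed from the backbone without the inhibitor. In DMSO, 14 members were higher and 2 lower in P199L-ERG than in BB cells, where 15.3% of all genes passed as higher and 12.9% as lower. In WT-ERG cells 15 were higher and 7 lower than in BB cells, beside 15.6% and 14.1% of all genes. These comparisons share the BB libraries. Among the 3241 genes of the highest quartile of levels, 20.9% were higher and 18.6% lower in P199L-ERG, and 17.7% higher and 21.3% lower in WT-ERG cells. The higher members in P199L-ERG cells were *Slc2a1*, *Slc2a3*, *Pfkl*, *Pfkm*, *Pfkp*, *Aldoc*, *Tpi1*, *Gapdh*, *Eno1*, *Ldha*, *Slc16a1*, *Pdk1*, *Pdk3* and *Fbp1*. Those in WT-ERG cells were *Slc2a1*, *Slc2a3*, *Pfkl*, *Pfkm*, *Pfkp*, *Aldoc*, *Tpi1*, *Gapdh*, *Pgam1*, *Eno1*, *Ldha*, *Slc16a1*, *Pdk1*, *Pdk3* and *Fbp1*. The members' median log2 fold change was 0.084 in P199L-ERG and 0.060 in WT-ERG cells, beside 0.016 and 0.0094 for all genes. The summed CPM of the monocyte and macrophage markers was lower in the ERG constructs (1094 to 1187 in P199L-ERG and 824 to 911 in WT-ERG, against 1799 to 1960.0 in BB cells), with 6 of 8 lower and 2 higher in each. Of 8 granulocyte-monocyte progenitor markers, 4 were higher and 0 lower in P199L-ERG, and 3 higher and 1 lower in WT-ERG cells. Of 4 mast cell and basophil markers, 3 were higher and 1 lower in P199L-ERG, and 2 higher and 1 lower in WT-ERG cells. Of 9 markers of maturing neutrophils, 1 was higher and 5 lower in P199L-ERG, and 3 higher and 4 lower in WT-ERG cells, and 1 of 2 lymphoid markers was higher in each, that list summing to 196 to 239.7 CPM in P199L-ERG and 187 to 224 in WT-ERG, against 101 to 111 in BB cells. The part of these marker differences in those of the members was not tested. Without both libraries rich in short-gene counts, 13 members were higher and 5 lower in P199L-ERG, and 14 higher and 8 lower in WT-ERG cells. With the replicate number as a block, 16 were higher and 4 lower in P199L-ERG cells. How the all-gene shares moved under these settings is not given here.

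*Ldha* and the lactate carrier *Slc16a1* were higher in both ERG constructs, while the exporter *Slc16a3* did not pass in either, with log2 fold changes of 0.077 in P199L-ERG and -0.13 in WT-ERG cells. *Ldha* had 634, 652, 647 and 665 CPM in P199L-ERG and 669.6, 679, 673 and 716 CPM in WT-ERG cells, against 557, 546, 562 and 566 CPM in BB cells, and the ERG libraries all lay above the BB libraries. For *Ldha* the log2 fold change was 0.22 (SE 0.029, edgeR adjusted p = 1.6e-06) in P199L-ERG and 0.29 (SE 0.029, edgeR adjusted p = 5.7e-09) in WT-ERG cells. *Slc16a1* had 175, 171, 162 and 169 CPM in P199L-ERG cells and 182, 175, 179 and 181 CPM in WT-ERG cells, against 142, 139, 135 and 138 CPM in BB cells. The ERG and BB libraries did not overlap. For *Slc16a1* the log2 fold change was 0.29 (SE 0.039, edgeR adjusted p = 1.4e-06) in P199L-ERG and 0.37 (SE 0.039, edgeR adjusted p = 1.2e-08) in WT-ERG cells. *Pdk1* had 44.7, 50.6, 44.6 and 48.2 CPM in P199L-ERG and 46.3, 46.4, 44.2 and 47.2 CPM in WT-ERG cells, against 37.6, 35.4, 35.2 and 37.0 CPM in BB cells. Again no library overlapped, and the log2 fold change was 0.38 (SE 0.050, edgeR adjusted p = 1.4e-06) in P199L-ERG and 0.34 (SE 0.050, edgeR adjusted p = 4.2e-06) in WT-ERG cells. *Pdk3* was higher as well, with 0.24 (SE 0.048, edgeR adjusted p = 0.0005) and 0.25 (SE 0.048, edgeR adjusted p = 0.00022). *Fbp1* had the largest differences of the members that passed, at a low level: 4.76, 5.71, 5.78 and 7.13 CPM in P199L-ERG and 4.70, 4.31, 4.28 and 5.34 CPM in WT-ERG cells, against 2.36, 2.03, 2.39 and 1.97 CPM in BB cells. For *Fbp1* the log2 fold change was 1.41 (SE 0.19, edgeR adjusted p = 1.6e-06) in P199L-ERG and 1.08 (SE 0.20, edgeR adjusted p = 9.4e-05) in WT-ERG cells.

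Among the uptake and early genes, *Slc2a3* was higher in P199L-ERG than in BB cells, with 0.22 (SE 0.058, edgeR adjusted p = 0.0043), and in WT-ERG cells, with 0.54 (SE 0.057, edgeR adjusted p = 1.9e-08). *Slc2a1* was higher in both, with 0.21 (SE 0.044, edgeR adjusted p = 0.00046) and 0.16 (SE 0.044, edgeR adjusted p = 0.0054). *Pfkl* had 135, 131, 135 and 148 CPM in P199L-ERG cells, against 114, 115, 105 and 107 CPM in BB cells, without overlap. For *Pfkl* the log2 fold change was 0.32 (SE 0.048, edgeR adjusted p = 1e-05) there and 0.22 (SE 0.048, edgeR adjusted p = 0.0006) in WT-ERG cells. *Pfkm* was higher with 0.39 (SE 0.076, edgeR adjusted p = 0.00029) in P199L-ERG and 0.32 (SE 0.077, edgeR adjusted p = 0.0019) in WT-ERG cells. *Pfkp* was higher too, with 0.17 (SE 0.047, edgeR adjusted p = 0.0078) and 0.20 (SE 0.047, edgeR adjusted p = 0.0013). Its P199L-ERG call was lost in an edgeR fit of only the groups compared (adjusted p = 0.0837). *Hk1* was lower in both constructs, with -0.15 (SE 0.033, edgeR adjusted p = 0.0013) in P199L-ERG and -0.23 (SE 0.033, edgeR adjusted p = 2.1e-06) in WT-ERG cells, and *Hk3* passed in neither, with -0.056 in WT-ERG cells and a 95% interval of -0.061 to 0.057 in P199L-ERG cells. *Eno1* was higher, with 0.23 (SE 0.036, edgeR adjusted p = 2.3e-05) and 0.18 (SE 0.036, edgeR adjusted p = 0.00042). *Tpi1* was higher in P199L-ERG cells, with 0.23 (SE 0.044, edgeR adjusted p = 0.00019). Its call in WT-ERG cells, with 0.12 (SE 0.044, edgeR adjusted p = 0.042), was lost in 10 of the 24 fits that left out 1 library each (adjusted p up to 0.129). The *Tpi1* call there was also lost with DESeq2, with RLE factors and without a filter. *Aldoc* was higher in WT-ERG cells, with 0.57 (SE 0.10, edgeR adjusted p = 7.8e-05), and its call in P199L-ERG cells, with 0.29 (SE 0.10, edgeR adjusted p = 0.039), was lost in 9 of 24 fits (adjusted p up to 0.149). That call was also lost with DESeq2, without a filter, with only the groups compared, and without both libraries rich in short-gene counts.

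The pentose phosphate genes were lower more often than higher in WT-ERG cells. *Pgd* had 1522, 1536, 1574 and 1638 CPM in WT-ERG cells, against 1871, 1903, 1959 and 1966 CPM in BB cells, with no overlap, and its log2 fold change was -0.30 (SE 0.044, edgeR adjusted p = 5.3e-06). *G6pdx* had 489, 498, 526 and 514 CPM in WT-ERG cells against 584, 583, 615 and 631 CPM in BB cells, and its log2 fold change was -0.25 (SE 0.039, edgeR adjusted p = 1e-05). In P199L-ERG cells *G6pdx* was lower as well, with -0.18 (SE 0.039, edgeR adjusted p = 0.001). *Tkt* and *Taldo1* were lower in WT-ERG cells, with -0.22 (SE 0.043, edgeR adjusted p = 0.00023) and -0.18 (SE 0.046, edgeR adjusted p = 0.0037). In P199L-ERG cells, *Pgd* had -0.069 (SE 0.044, edgeR adjusted p = 0.26), *Tkt* had -0.030 (SE 0.043, edgeR adjusted p = 0.64) and *Taldo1* had -0.11 (SE 0.046, edgeR adjusted p = 0.075), of which *Taldo1* passed under the replicate block at -0.11 (adjusted p = 0.009). All 3 were lower without replicate 4 of DMSO-treated P199L-ERG cells, *Pgd* at -0.14 (adjusted p = 0.00074), *Tkt* at -0.11 (adjusted p = 0.0017) and *Taldo1* at -0.18 (adjusted p = 0.00032). *Pfkfb4*, *Aldoa* and *Pgls* in P199L-ERG cells also passed with the block, at -0.15 (adjusted p = 0.04), 0.083 (adjusted p = 0.03) and 0.18 (adjusted p = 0.0088), and *Slc16a3* in WT-ERG cells at -0.13 (adjusted p = 0.0039). Of the remaining calls, *Gapdh* was higher in both constructs, with 0.19 and 0.23, *Pgam1* was higher in WT-ERG cells, with 0.18, and *Gpi1* and *Pfkfb4* were lower in WT-ERG cells, with -0.083 and -0.17. The calls of *Pgam1*, *Gpi1* and *Pfkfb4* were lost in 2, 4 and 6 of the 24 fits that left out 1 library each, all of them DMSO libraries of WT-ERG or BB cells. The *Gapdh* call in P199L-ERG cells was lost in an edgeR fit of only the groups compared (adjusted p = 0.0820).

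The third question was how P199L-ERG cells differed from WT-ERG cells, where the substitution and the cell line cannot be told apart. In DMSO, 3 members were higher and 1 lower in P199L-ERG than in WT-ERG cells, beside 2.23% and 2.45% of all genes. *Slc2a3* had 52.2, 53.5, 50.6 and 50.9 CPM in P199L-ERG cells, against 61.1, 65.8, 65.6 and 64.8 CPM in WT-ERG cells, with no overlap, and its log2 fold change was -0.31 (SE 0.056, edgeR adjusted p = 0.00061). The other 3 were higher in P199L-ERG cells. *Pgd* had 1689, 1744, 1821 and 2086 CPM in P199L-ERG cells, against 1522, 1536, 1574 and 1638 CPM in WT-ERG cells. For *Pgd* the log2 fold change was 0.23 (SE 0.044, edgeR adjusted p = 0.0014), and 0.17 without replicate 4 of DMSO-treated P199L-ERG cells. *Tkt* had 1688, 1652, 1684 and 2026 CPM in P199L-ERG cells, against 1555, 1512, 1554 and 1575 CPM in WT-ERG cells. For *Tkt* the log2 fold change was 0.19 (SE 0.043, edgeR adjusted p = 0.0069), and 0.12 without that library. *Slc16a3* had 93.2, 104, 102 and 106 CPM in P199L-ERG cells, against 85.7, 84.5, 87.1 and 94.0 CPM in WT-ERG cells, with overlap, and its log2 fold change was 0.21 (SE 0.051, edgeR adjusted p = 0.014). Its call was lost without replicate 1 or replicate 2 of DMSO-treated WT-ERG cells (adjusted p = 0.0501 and 0.0653). Scaled by library size alone, 3 were higher and 2 lower. Without replicate 4 of DMSO-treated P199L-ERG cells *G6pdx* passed as well, at 0.13 (adjusted p = 0.0084). In a fit of the 8 compared libraries alone, 1 of the 4 calls remained, that of *Slc2a3*. With the replicate number as a block 6 members passed, the added ones being *Aldoc* at -0.27 (adjusted p = 0.047) and *Tpi1* at 0.11 (adjusted p = 0.035). All-gene shares under these alternative fits are not given here. *Ldha* did not pass, with -0.075 (SE 0.029, edgeR adjusted p = 0.17), although its P199L-ERG libraries all lay below its WT-ERG libraries.

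Whether the response to BRD3308 differed between constructs was tested as the difference of the log2 responses. Of 33 members, *Ldha* alone passed between WT-ERG and BB cells, where 1.73% of all genes did. Its decrease was larger in WT-ERG cells, by a difference of -0.16 (SE 0.042, edgeR adjusted p = 0.042), with a 95% interval of -0.24 to -0.078. Intervals are not adjusted for the number of genes. The call was lost in 12 of the 24 fits that left out 1 library each (adjusted p up to 0.101), among them each of the 4 fits without a DMSO library of BB cells. At an unadjusted p under 0.05, 9 of 33 members differed, beside 10.4% of all genes, and DESeq2 and limma-voom each called 1. The *Slc2a3* response differed between WT-ERG and BB cells by -0.26 (SE 0.078, edgeR adjusted p = 0.11), and that of *Pfkp* by -0.20 (SE 0.065, edgeR adjusted p = 0.14). Neither passed, and under the replicate block both did, *Slc2a3* at -0.26 (adjusted p = 0.02) and *Pfkp* at -0.20 (adjusted p = 0.018). Without replicate 4 of DMSO-treated P199L-ERG cells, which are not among the compared libraries, *Pfkp*, *Aldoa* and *Gapdh* passed beside *Ldha*, at -0.21 (adjusted p = 0.036), -0.12 (adjusted p = 0.043) and -0.20 (adjusted p = 0.038). Between P199L-ERG and BB cells, 0 members passed with edgeR, DESeq2 or limma-voom, where 1.05% of all genes passed with edgeR, and 5 did at an unadjusted p under 0.05, as did 12.8% of all genes. The smallest adjusted p was 0.27, for *Pfkl* (difference -0.17, 95% interval -0.30 to -0.039). For *Slc2a3* the difference was -0.018 (95% interval -0.17 to 0.14) and for *Hk3* -0.027 (-0.11 to 0.056). Between P199L-ERG and WT-ERG cells 0 members passed with any of the 3 tools, 5 did at an unadjusted p under 0.05, where 5.89% of all genes did, and 0.0463% of all genes passed with edgeR. The smallest adjusted p was 0.62, for *Slc2a3*, with a difference of 0.24 (95% interval 0.088 to 0.39). For *Ldha* the interval was 0.0012 to 0.16.

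**Figure D4:**
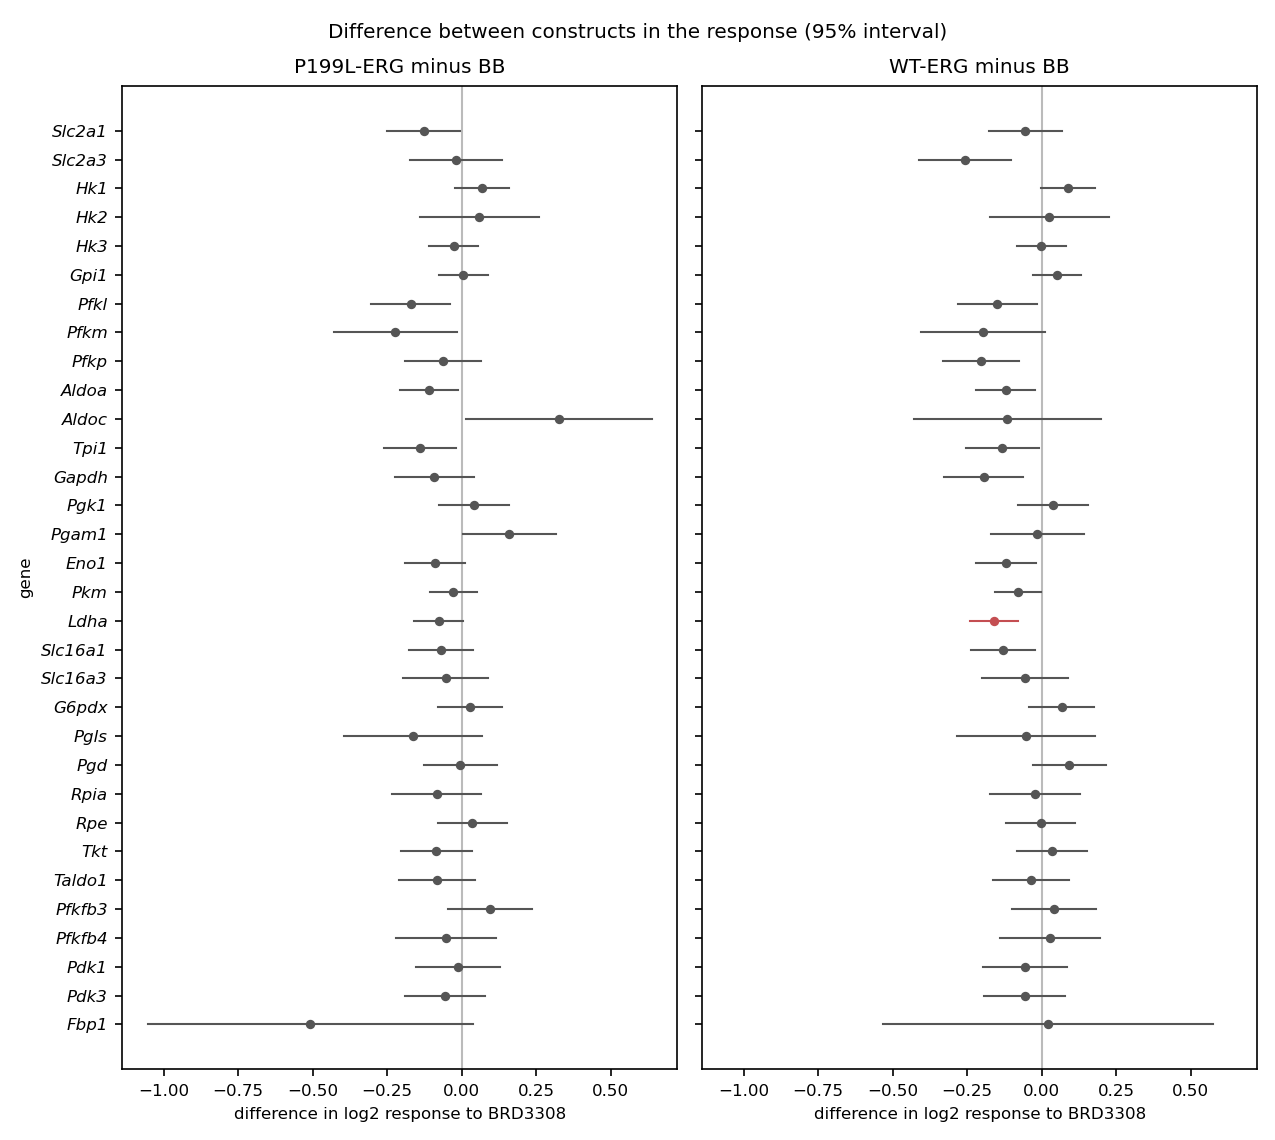
Difference between constructs in the log2 response to BRD3308 for 32 members (*Eno2* left out), P199L-ERG minus BB on the left and WT-ERG minus BB on the right. Points are edgeR estimates and lines are 95% intervals. The coloured point is *Ldha* at -0.16 in WT-ERG minus BB, and no point in the left panel passed the test.

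Neighbouring genes of the pathway were taken as further lists, whose counts stand beside the all-gene shares given above of 22% to 24.7% in each direction, with no test of the lists. Of 18 regulators of glycolytic transcription, 5 were higher and 8 lower with BRD3308 in P199L-ERG cells, 5 higher and 8 lower in WT-ERG cells and 3 higher and 8 lower in BB cells. *Hif1a*, the oxygen-regulated subunit of HIF-1, was higher, with log2 fold changes of 0.36, 0.24 and 0.29 in P199L-ERG, WT-ERG and BB cells (edgeR adjusted p at most 1.9e-07). Of the prolyl hydroxylases that mark HIF-1 for degradation, *Egln2* was lower with -0.53, -0.42 and -0.46 and *Egln3* with -0.34, -0.32 and -0.31 on the log2 scale (edgeR adjusted p at most 1.5e-06). *Egln1*, a further one on the list, is not given here, and *Egln3* stands in the list of hypoxia targets as well. Of 13 tested hypoxia targets outside glycolysis, 5 were higher and 4 lower in P199L-ERG, 6 higher and 3 lower in WT-ERG and 3 higher and 5 lower in BB cells. *Ndrg1* and *Ddit4* led the higher ones, with 0.77, 0.87 and 0.96 for *Ndrg1* and 0.44, 0.47 and 0.63 for *Ddit4*, while *Higd1a*, a mitochondrial protein, was lower, with -0.47, -0.30 and -0.41. In DMSO, *Egln3*, itself a hypoxia target, was higher in P199L-ERG (0.50) and WT-ERG (0.66) than in BB cells, and *Myc* was higher in WT-ERG cells (0.55) (edgeR adjusted p at most 1.1e-06). These are single genes. The rest of their lists in these comparisons, and *Myc* in P199L-ERG cells, are not given here, so they do not describe the lists.

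Of 9 tested NRF2 targets outside the pentose phosphate pathway, 6 were higher and 1 lower with BRD3308 in P199L-ERG, 6 higher and 1 lower in WT-ERG and 7 higher and 1 lower in BB cells. *Hmox1*, haem oxygenase, had log2 fold changes of 1.24, 1.35 and 1.45, and *Gclm*, a subunit of the enzyme that starts glutathione synthesis, had 0.61, 0.46 and 0.51. *Gsr*, which uses NADPH to restore glutathione, moved against the list, with -0.39, -0.46 and -0.45 (edgeR adjusted p at most 4e-09). *G6pdx* was the pentose phosphate member that was higher in all 3 constructs, while *Tkt* was lower and *Pgd* did not pass. Of 5 other sugar and lactate transporters, 3 were higher and 1 lower in P199L-ERG, 3 higher and 1 lower in WT-ERG and 3 higher and 0 lower in BB cells, led by *Slc2a6* with 0.61, 0.51 and 0.82. *Slc37a4*, the glucose 6-phosphate carrier of the endoplasmic reticulum, was lower in P199L-ERG and WT-ERG cells, with -0.26 and -0.23. Of 15 other glycolytic and gluconeogenic genes, 6 were higher and 5 lower in P199L-ERG, 3 higher and 6 lower in WT-ERG and 5 higher and 6 lower in BB cells. *Pgp*, phosphoglycolate phosphatase, led them with -0.84, -0.74 and -0.68 (edgeR adjusted p at most 1.8e-08), and *Tigar*, a fructose bisphosphatase that steers glucose toward the pentose phosphate pathway, had -0.27, -0.41 and -0.45. Of 10 genes of pyruvate entry to mitochondria, 1 was higher and 6 lower in P199L-ERG, 0 higher and 5 lower in WT-ERG and 0 higher and 3 lower in BB cells, with *Pdhb*, a subunit of pyruvate dehydrogenase, at -0.37, -0.28 and -0.28. Of 9 other pentose phosphate genes, 1 was higher and 2 lower in P199L-ERG, 0 higher and 2 lower in WT-ERG and 2 higher and 2 lower in BB cells, the lower ones near the all-gene share, with *Dera*, deoxyribose-phosphate aldolase, at -0.29, -0.28 and -0.23.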

How the data were processed

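RNA-seq was done on 24 libraries of ER-Hoxb8 cells, 4 per group. The deposited file holds raw read counts per Ensembl mouse gene for all libraries. By the study's methods, which apply 1 RNA-seq analysis to these and other cells, the authors discarded short reads and aligned the rest to GRCm38 with STAR. Cutadapt, HTSeq and DESeq2 are further tools in the notes the submitters gave GEO. Versions, the strand setting and the treatment of reads that fit several genes were not given in the sources used here. Symbols were matched for 53706 of 53801 gene IDs with GENCODE annotation of GRCm38, which also gave exon lengths and coordinates.

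Counts were filtered with filterByExpr by group, scaled by TMM and fitted in edgeR 4.0.16 (R 4.3.3) with 1 coefficient per group over all 24 libraries, and 9 comparisons were tested by the quasi-likelihood F test, two-sided, with Benjamini-Hochberg adjustment over 12963 genes. SEs were derived from the fold change and the root of F. The main test is edgeR's, where the study's methods name DESeq2. No pair of libraries agreed within sampling noise (chi-square per degree of freedom 1.52 to 23.8), so all were kept. The alternatives tried were scaling by RLE factors or by library size alone, testing without a filter, more than 30 reads in every library, DESeq2 1.42.0, limma-voom (limma 3.58.1), only the groups compared, the replicate number as a block, both libraries rich in short-gene counts left out, and each of 24 libraries left out. Same-numbered libraries deviated together (over 6053 genes, 57 of 60 pairs had a correlation over 0.1, and their mean was 0.36, against -0.12 for other numbers). Every pair passed 0.1 in the compared groups of 5 of the 6 direct comparisons, the exception being BRD3308 against DMSO in WT-ERG cells. Members named with full statistics in a comparison are those past the threshold with the 8 smallest p-values and those with an absolute log2 fold change of at least 1, and other members are named by their role. Of each neighbouring list, up to 3 genes with the smallest p-values and any that moved against the list could be named. The members, the lists and the libraries left out together were chosen with earlier results of these data known. The script was tested on simulated data.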

Additional observations from a re-analysis of the deposited data

Results flagged for a closer look

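Of 198 sets of 4 libraries (33 members in 6 groups), 13 held a library far from the other 3, where chance gives about 1 in 20. Of these, 5 were in replicate 4 of DMSO-treated P199L-ERG cells, a library with relatively more counts from short genes. It had 2026 CPM of *Tkt* (1652 to 1688 in the other 3), 212 CPM of *Rpia* (167 to 172), 31.4 CPM of *Pfkm* (26.6 to 27.2), 102 CPM of *Pfkp* (116 to 119) and 43.0 CPM of *Pfkfb4* (54.2 to 55.4). Whether the length bias accounts for them was not tested. In P199L-ERG cells with BRD3308, replicate 2 had 55.9 CPM of *Slc2a1* (57.5 to 57.6), replicate 3 had 32.7 CPM of *Pfkm* (30.3 to 30.7) and 578 CPM of *Ldha* (552 to 556), and replicate 4 had 1424 CPM of *Tkt* (1482 to 1491). In BB cells with BRD3308, replicate 4 had 451 CPM of *Hk3* (469 to 472) and 4.26 CPM of *Aldoc* (5.43 to 5.67). In DMSO-treated WT-ERG cells, replicate 4, the other library with relatively more counts from short genes, had 194 CPM of *Pfkfb3* (215 to 219), and replicate 2 had 0.364 CPM of *Eno2*, which had 0 counts in the other 3.

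The response of *Ldha* to BRD3308 differed between WT-ERG and BB cells, by -0.16 on the log2 scale in the test of the difference itself (edgeR adjusted p = 0.042). That test called 1.73% of all genes, and the *Ldha* call was lost in 12 of 24 fits that left out a library (adjusted p up to 0.101). *Ldhb*, which was left out of the tests for its low counts, had 22 counts over 4 libraries of BB cells with BRD3308, against 1 with DMSO, and 9 counts in WT-ERG cells with BRD3308, against 0 with DMSO.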

How the results depend on the processing

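Of 104 member results past the threshold, 79 kept their call under every alternative, 25 lost it under at least 1, and 0 changed direction. Of the 25, 16 lost it when a library was left out. The count for P199L-ERG against WT-ERG in DMSO was 4, and 1 when only the groups compared were fitted. The count for the response difference between WT-ERG and BB was 1, and became 0 with no filter on low counts, 3 with the replicate block, 2 without both libraries rich in short-gene counts, and between 0 and 4 with a library left out, 4 being the count without replicate 4 of DMSO-treated P199L-ERG cells. The causes were not tested. With the replicate number as a block, 24 members passed in P199L-ERG, 24 in WT-ERG and 22 in BB cells for BRD3308 against DMSO, 20 for P199L-ERG and 23 for WT-ERG against BB, 6 for P199L-ERG against WT-ERG, and 0 for the response differences of P199L-ERG from BB and from WT-ERG. Over all 12963 genes the block gave 7103, 7077 and 6814 calls for BRD3308 against DMSO in P199L-ERG, WT-ERG and BB cells, against 6287, 6217 and 5954 without it. For the other comparisons and alternatives the all-gene calls are not given here. In WT-ERG cells with BRD3308, where 1 or more same-numbered pairs had a correlation under 0.1, the block added *Slc16a3* and *Taldo1*. Over all groups, 18 of 24 libraries correlated best with libraries of their own number. The other total counts of members called stayed within 1.5 times the reported ones. By direction, the 2 lower members of P199L-ERG against BB became 5 without both libraries rich in short-gene counts and 4 with the block. With RLE factors in place of TMM, 210 of 210 group means lay within 1 SD. Depth limited *Eno2* and *Ldhb*, with at most 14 and 8 counts in any library, and *Pdk2*, with 0, and many counts of *Gapdh*, *Eno1*, *Pgk1* and *Pgam1* could belong to copies of these genes.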
